A study of Mus musculus with 12 samples.

Results

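The genes examined were 51 genes of the cell cycle and of DNA replication, taken by symbol from a list of known regulators of division, among the 46078 genes counted in mouse liver. They were divided by the phase in which their products act into 22 G1/S members, which commit a cell to division and copy its DNA, and 29 mitotic members, which carry it through G2, mitosis and cytokinesis. RNA came from the livers of mice with diet-induced obesity, labelled C57BL/6 and described in the methods of the study as C57BL/6J males, which were 21 weeks old per the labels and were fed a diet with 60% of its energy from fat from 5 weeks of age. Vertical sleeve gastrectomy (VSG), which removes most of the stomach, was compared with sham surgery followed by a return to unrestricted food (Sham-Ad lib) and with sham surgery followed by food restriction to the body weight of the VSG mice (Sham-WM). Each group was represented by 4 mice, with 1 library per mouse. Livers were taken 16 days after the operation, when food had been withheld for 5 hours.

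Most hepatocytes of an adult liver are out of the cell cycle, and they return to it when liver mass is lost. Entry begins with D-type and E-type cyclins, which activate cyclin-dependent kinases and free the E2F transcription factors from the retinoblastoma family of proteins. E2F factors then switch on the genes that load and fire replication origins and that supply nucleotides. The mitotic genes come on later, under the control of the DREAM and MuvB complexes, Mybl2 and Foxm1. Many of them hold CHR and CCAAT elements close to the start of transcription. Other dividing cells, among them blood cell precursors and tissue macrophages, use the same genes, so that RNA of whole liver does not show which cell held a transcript.

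Library totals lay between 15122520 and 19384076 counts, and levels are given as CPM, counts scaled to the effective size of each library after TMM normalisation. Libraries were named by animal number: 3F, 4F, 6F and 10F for Sham-Ad lib, 2F, 9F, 15F and 16F for Sham-WM, and 1F, 8F, 11F and 18F for VSG. Markers of hepatocytes were abundant in every library, with a summed level of 6 genes between 70852.5 and 140924 CPM. The sums were 73102, 70852.5, 77691 and 113317 CPM in VSG libraries 1F, 8F, 11F and 18F. In the 8 sham libraries they were 96064 to 140924 CPM. VSG libraries 1F and 8F had the highest levels of 4 markers of granulocyte precursors, a summed 215 and 116 CPM, against 0.255 to 18.1 CPM in the 8 sham libraries. VSG library 11F, at 41.1 CPM, was also above all 8 sham libraries, and 18F stood at 9.56 CPM. A second field of the labels pairs the libraries with groups in another order, which would move 8 of the 12 libraries. The index numbers in the library names form 1 block of 4 per group, and any batch in that order and the treatment cannot be told apart.

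The 2 classes differed in the letters near their transcription starts. RefSeq promoters (GRCm38.p6, 250 bases before to 50 bases after the start) were found for 41 of the 51 members, 18 of them G1/S and 23 mitotic. They were searched on both strands for the E2F letters TTCCCGC and TTGGCGC, the CHR letters TTTGAA and TTCGAA, and the CCAAT box CCAAT. E2F letters were present in 10 of 18 G1/S members (55.6%), in 4 of 23 mitotic members (17.4%) and in 7.79% of all 27025 genes with a promoter. CHR letters were present in 4 of 18 G1/S members (22.2%), in 18 of 23 mitotic members (78.3%) and in 21.7% of all genes. CCAAT was present in 11 of 18 G1/S members (61.1%), in 20 of 23 mitotic members (87%) and in 41.1% of all genes. CHR letters and CCAAT stood in the same promoter in 78.3% of the mitotic members, 22.2% of the G1/S members and 8.61% of all genes. Over all 32851 promoters of the table, the shares were 6.81% for E2F, 19.2% for CHR and 37.4% for CCAAT. Of the genes tested for differences below, 10114 had a promoter. Among these the shares were 13.5% for E2F, 16.5% for CHR, 42.8% for CCAAT and 6.71% for CHR and CCAAT in the same promoter. A match is a match of letters and not a site at which a factor was measured. The 10 members without an entry were Ccnd1, Ccne2, Mcm4, Gmnn, Ccna2, Foxm1, Aurkb, Kif20a, Tpx2 and Stmn1.

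**Figure D1:**
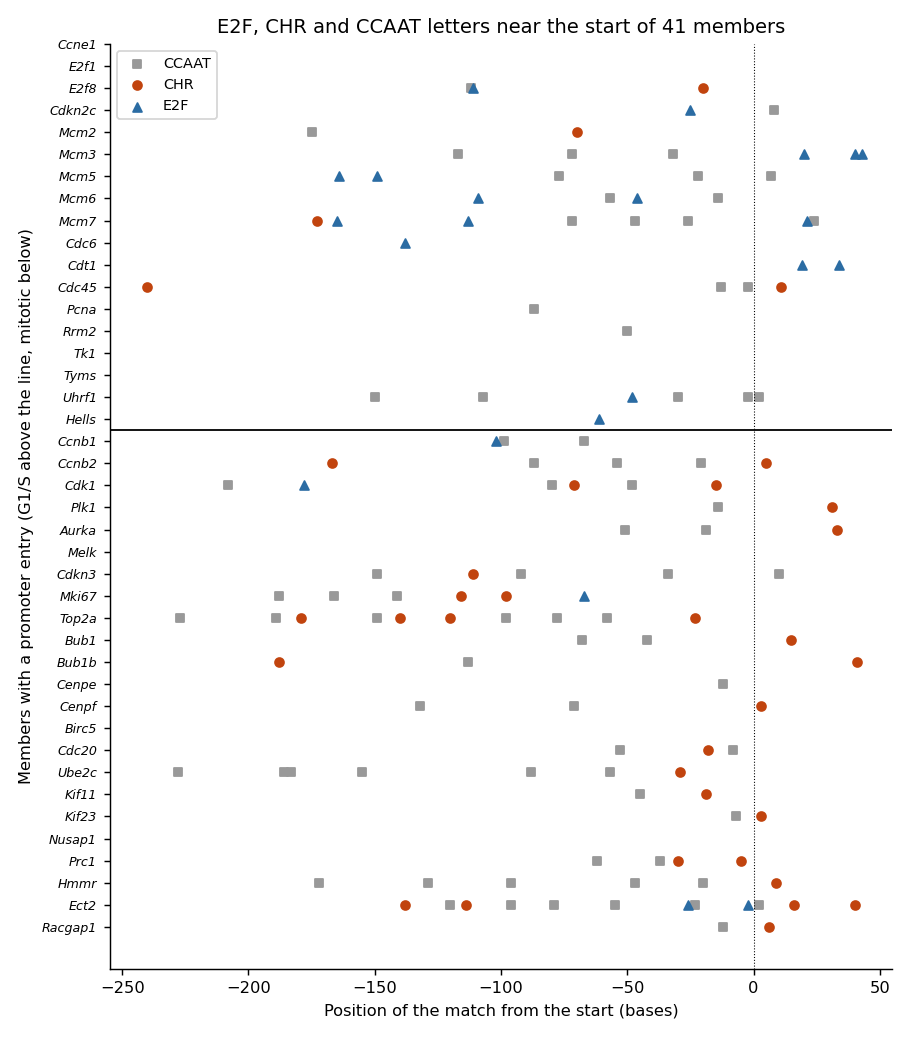
Positions of the E2F (triangles), CHR (circles) and CCAAT (squares) letters from the start of transcription in bases, 1 line per member, with the 18 G1/S members above the line and the 23 mitotic members below. CHR matches lie in 18 of 23 mitotic members and in 4 of 18 G1/S members, and E2F matches in 10 of 18 G1/S members and in 4 of 23 mitotic members.

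The bases before the start are shown for 4 members, 2 of each class, with every match in capitals. Ccne1 and Racgap1 are the called G1/S member and the called mitotic member with the largest fold change among those with an entry, Mki67 is the common marker of dividing cells, and Mcm6 was chosen, with its values known, as a G1/S member with E2F letters. The Ccne1 window runs to position -45, where an annotated exon begins, and holds none of the letters. Mcm6 holds TTGGCGC at positions -109 and -46 and the reverse complement of CCAAT at -57 and -14. Mki67 holds TTTGAA at -116 and -98, TTGGCGC at -67 and CCAAT on either strand at -188, -166 and -141. Racgap1 holds the reverse complement of CCAAT at -12, and CHR letters at position 6, after the start and outside the bases shown.
Ccne1, chr7:38107535-38107740, minus strand: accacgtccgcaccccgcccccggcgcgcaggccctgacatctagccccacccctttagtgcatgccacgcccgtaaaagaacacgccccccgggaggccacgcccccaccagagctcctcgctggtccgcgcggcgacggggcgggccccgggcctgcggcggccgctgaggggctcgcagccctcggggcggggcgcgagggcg
Mcm6, chr1:128359706-128359955, minus strand: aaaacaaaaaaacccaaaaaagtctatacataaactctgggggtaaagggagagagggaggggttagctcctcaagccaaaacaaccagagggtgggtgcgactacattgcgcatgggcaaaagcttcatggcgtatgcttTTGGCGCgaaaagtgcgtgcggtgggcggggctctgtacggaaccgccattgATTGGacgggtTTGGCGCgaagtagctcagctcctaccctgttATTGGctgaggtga
Mki67, chr7:135716380-135716629, minus strand: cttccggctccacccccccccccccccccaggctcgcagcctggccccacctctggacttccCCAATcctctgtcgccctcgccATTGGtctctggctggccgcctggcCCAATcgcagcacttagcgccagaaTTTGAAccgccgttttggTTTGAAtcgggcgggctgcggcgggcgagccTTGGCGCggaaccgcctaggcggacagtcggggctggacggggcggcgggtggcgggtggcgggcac
Racgap1, chr15:99651657-99651906, minus strand: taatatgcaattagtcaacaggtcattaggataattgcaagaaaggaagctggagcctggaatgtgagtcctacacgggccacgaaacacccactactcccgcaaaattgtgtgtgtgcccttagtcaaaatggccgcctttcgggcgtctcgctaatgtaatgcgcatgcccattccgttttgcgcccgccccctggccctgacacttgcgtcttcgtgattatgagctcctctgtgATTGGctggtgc

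Transcripts of the G1/S members were more abundant than those of the mitotic members. Per kilobase of exon, the mean level over 12 libraries had a median of 1.26 CPM per kilobase for the 22 G1/S members and 0.212 CPM per kilobase for the 29 mitotic members. On that scale Pcna, the sliding clamp of the replication fork, had the highest level of all members, 12.9 CPM per kilobase, and Cenpf, a kinetochore protein, the lowest, 0.0484. Of the 51 members, 43 passed the filter on low counts and were tested beside 13054 genes in all, and the 8 that did not pass (Ccnb1, Foxm1, Plk1, Melk, Cdkn3, Bub1, Cdc20 and Hmmr) were all mitotic.

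**Figure D2:**
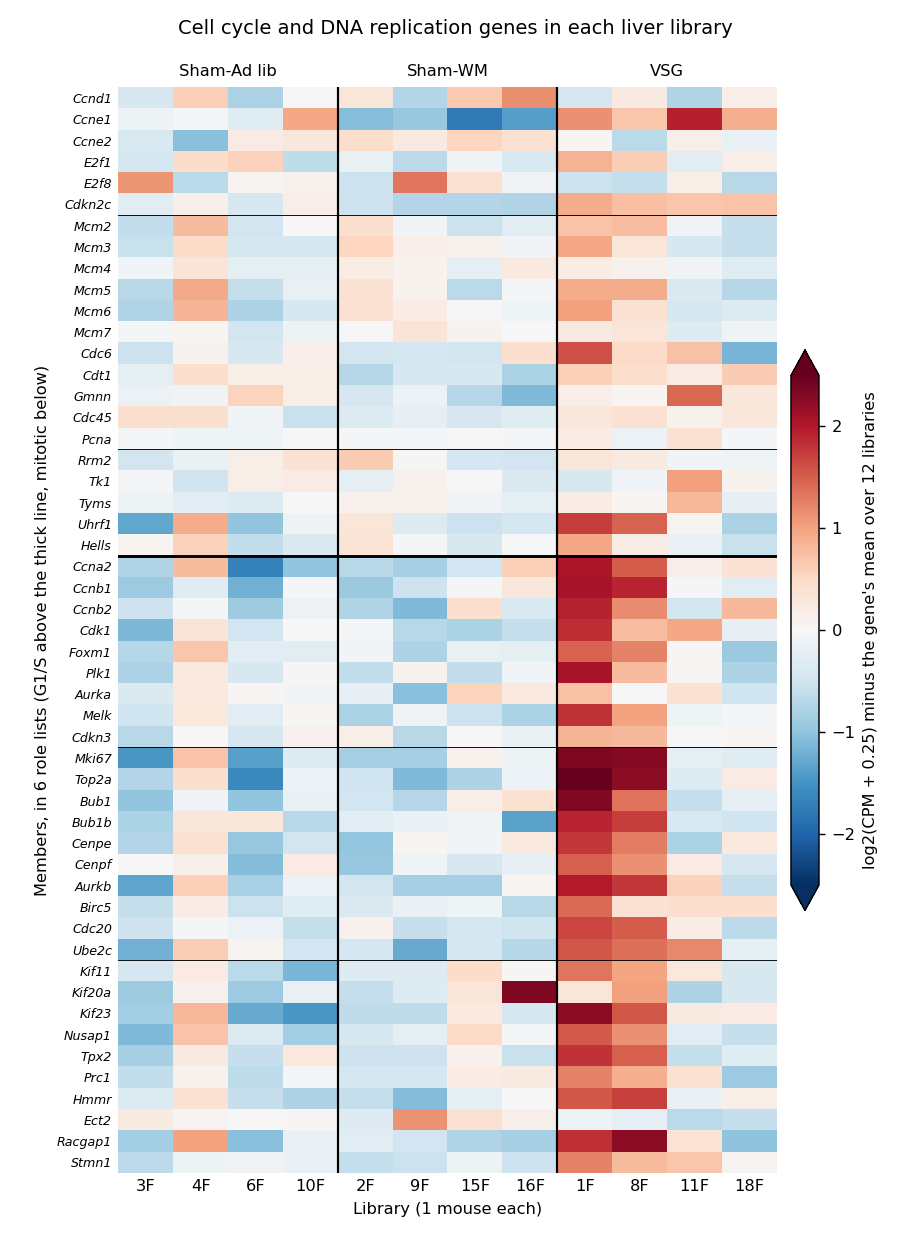
Level of each of the 51 members (lines, in 6 role lists) in each of the 12 libraries (columns), as log2(CPM + 0.25) minus the mean of the gene over the 12 libraries. Below the thick line, the 29 mitotic members are highest in VSG library 1F for 25 genes and in 8F for 2 genes, whereas the 22 G1/S members above it have their highest value in 1F for 7 genes.

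VSG against Sham-Ad lib asks how the operated liver differs from the liver of obese mice that ate freely. Of the 43 tested members, 1 was called at an adjusted p under 0.05, a share of 2.33% beside 0.751% of all 13054 genes tested (0.467% higher and 0.283% lower in VSG). This was Cdkn2c (ENSMUSG00000028551, chr4:109660876-109667189 on mm10, minus strand), which encodes p18INK4c, an inhibitor of the G1 kinases Cdk4 and Cdk6. Cdkn2c stood at 4.02, 5.31, 3.62 and 5.46 CPM in Sham-Ad lib and at 9.50, 8.37, 7.98 and 8.08 CPM in VSG. Every VSG library was above every Sham-Ad lib library, and Cdkn2c rose 1.84-fold (log2 fold change 0.88 ± 0.16 SE, n = 4 per group, edgeR adjusted p = 0.0442). The level of a transcript in whole liver cannot tell apart a change in the number of cells of a type and a change in RNA per cell. The call rested on single libraries: it was lost without 3F, 6F, 10F, 2F, 9F, 15F, 16F or 1F, where 0 members were called, while 7 were called without 4F and 9 without 18F.

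The mitotic members had the larger differences between VSG and Sham-Ad lib, none of which was called at the adjusted threshold. In a fit of all genes with any count, which holds all 51 members, 28 of the 29 mitotic members had a positive log2 fold change with a median of 1.58, and 18 of the 22 G1/S members a positive one with a median of 0.29. The median over all 23091 genes of that fit was 0.018. At an unadjusted p under 0.05, 17 mitotic members and 3 G1/S members passed, all with higher values in VSG, beside 24.1% of all genes tested. DESeq2 called 7 members (Birc5, Ccnb1, Ccnb2, Cdk1, Cdkn2c, Stmn1 and Top2a) beside 9.01% of its genes, and edgeR without the filter on low counts called 3 (Cdkn2c, Stmn1 and Top2a) beside 2.72%. The groups did not overlap for 4 members, Cdkn2c, Birc5 and Stmn1 with higher and Ect2 with lower values in VSG, beside 9.21% of all genes tested (4.87% higher and 4.34% lower).

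Sham-WM against Sham-Ad lib asks what food restriction and weight loss without the operation did. Of the tested members, 2 were called, both lower in Sham-WM, a share of 4.65% beside 6.99% of all genes tested (3.53% higher and 3.45% lower). Ccne1 (ENSMUSG00000002068, chr7:38097984-38107534 on mm10, minus strand) encodes cyclin E1, the partner of Cdk2 at the entry into S phase. It stood at 1.00, 1.07, 0.866 and 2.45 CPM in Sham-Ad lib and at 0.408, 0.461, 0.153 and 0.281 CPM in Sham-WM, which is 3 to 67 counts per library over the whole series. The groups did not overlap, and Ccne1 fell 4.03-fold (log2 fold change -2.01 ± 0.47 SE, n = 4 per group, edgeR adjusted p = 0.0218). Cdkn2c stood at 3.31, 2.82, 2.81 and 2.76 CPM in Sham-WM, again below every Sham-Ad lib library, and fell 1.57-fold (log2 fold change -0.65 ± 0.17 SE, edgeR adjusted p = 0.0352).

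The other members showed no common direction between the sham groups. In the fit of all genes with any count, 13 of 29 mitotic and 9 of 22 G1/S members had a positive log2 fold change, with medians of -0.058 and -0.036 beside 0 for all genes. At an unadjusted p under 0.05, 5 members passed, 4 of them G1/S, beside 21.6% of all genes tested, and DESeq2 called 3 (Ccne1, Cdkn2c and Cdt1) beside 10.8%. No mitotic member was called by edgeR or by DESeq2, and Kif20a alone passed the unadjusted threshold. Cdt1, the licensing factor that loads the MCM helicase, did not overlap between the sham groups (1.38, 1.79, 1.79 and 1.29 CPM in Sham-WM, 2.01, 3.33, 2.70 and 2.70 CPM in Sham-Ad lib), with an edgeR adjusted p of 0.0508. With Ccne1 and Cdkn2c it made up the 3 members without overlap, all lower in Sham-WM, beside 17.6% of all genes tested (9.17% higher and 8.4% lower). Without 1 library at a time, between 0 and 3 members were called, 0 without 10F, 15F or 16F, 1 (Ccne1) without 4F or 9F and 3 without 11F. Leaving out 3F exchanged Cdkn2c for Cdt1.

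VSG against Sham-WM asks how the operation differs from weight loss alone, and it held most of the called members. Of the 43 tested members, 15 were called, a share of 34.9% beside 26.9% of all genes tested. Of these, 14 were higher in VSG, where 15.0% of all genes tested were called higher, and Ect2 was lower, where 11.9% were called lower. The called members were 4 of 22 G1/S members, 18.2% of those tested, and 11 of the 21 tested mitotic members, 52.4%. Of the called mitotic members, Aurkb, Racgap1 and Ccnb2 passed the filter on low counts largely through VSG libraries, where they were high. The share of 52.4% thus depends in part on the group compared. Without that filter, 15 of 29 mitotic members (51.7%) and 4 of 22 G1/S members were called, beside 14.3% of all genes in that fit. Over all 51 members in the fit of all genes with any count, 27 of 29 mitotic members had a positive log2 fold change with a median of 1.77, and 17 of 22 G1/S members a positive one with a median of 0.30. The median over all genes of that fit was 0.040. The groups did not overlap for 9 members, Ccne1, Cdkn2c, Cdt1, Gmnn, Cdc45, Birc5, Ube2c and Stmn1 with higher and Ccne2 with lower values in VSG, beside 26.2% of all genes tested (14.3% higher and 11.9% lower). At an unadjusted p under 0.05, 22 members passed, beside 40.4% of all genes tested, and DESeq2 called 22, beside 25.2%. The difference between the classes was not tested.

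**Figure D3:**
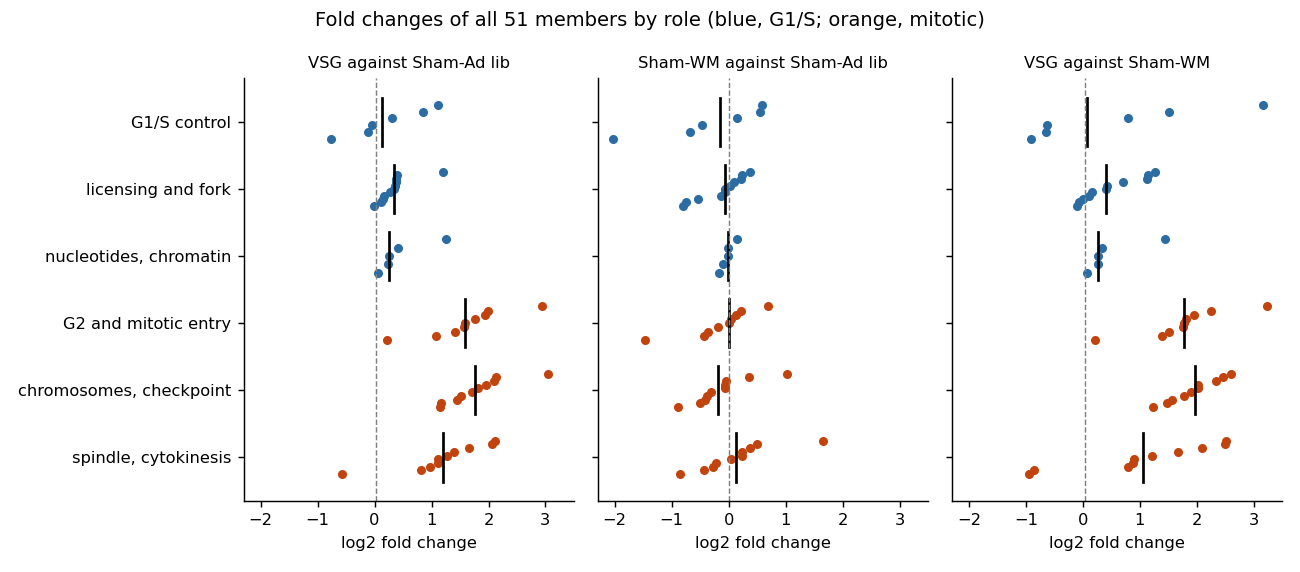
Log2 fold change of each of the 51 members (points) in 3 comparisons, by role, from the fit of all genes with any count, with the median of each role (black bar) and of all genes (dashed line). In the comparisons of VSG, the medians of the 3 mitotic roles (orange) lie to the right of those of the 3 G1/S roles (blue), with a median of 1.77 for mitotic and 0.30 for G1/S members against Sham-WM, whereas the classes lie around 0 for Sham-WM against Sham-Ad lib.

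Among the regulators of G1/S, 2 of 6 were called between VSG and Sham-WM, a share of 33.3% beside 26.9% of all genes tested. Ccne1 stood at 2.81, 1.99, 5.05 and 2.33 CPM in VSG, above the highest Sham-WM library at 0.461 CPM. It was 9.08-fold higher in VSG (log2 fold change 3.18 ± 0.46 SE, n = 4 per group, edgeR adjusted p = 0.000897), the largest fold change of any called member in this comparison. Cdkn2c was 2.90-fold higher (log2 fold change 1.53 ± 0.17 SE, edgeR adjusted p = 0.000148), so that its 3 groups lay in the order Sham-WM, Sham-Ad lib and VSG with no overlap between neighbours. A cyclin that drives S phase entry and an inhibitor of the G1 kinases were thus higher in the same livers. Both calls were kept without libraries 1F and 8F, with log2 fold changes of 3.42 and 1.42 and edgeR adjusted p of 0.0041 and 0.00359, and without any 1 library. With the second label field the log2 fold changes were 0.57 and 0.30, and neither gene was called. Ccnd1 (cyclin D1), which had 12.5 to 24.6 CPM in VSG, 12.6 to 47.6 CPM in Sham-WM and 12.01 to 32.1 CPM in Sham-Ad lib, overlapped in all 3 comparisons. Its log2 fold change for VSG against Sham-WM was -0.64 ± 0.37 SE (edgeR adjusted p = 0.212). E2f1, the activating E2F, had 5.50, 4.54, 2.34 and 3.24 CPM in VSG and 2.497, 1.74, 2.65 and 2.14 CPM in Sham-WM, with an edgeR adjusted p of 0.0923. E2f8, a repressing E2F, and Ccne2, the second cyclin E, had negative log2 fold changes of -0.88 and -0.61 that were not called (edgeR adjusted p = 0.145 and 0.163).

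Of the 11 members that license and fire replication origins, Cdt1 and its inhibitor geminin (Gmnn) were called, a share of 18.2% that lay below the 26.9% of all genes tested. Cdt1 stood at 3.82, 3.37, 2.79 and 3.92 CPM in VSG, above all 4 Sham-WM libraries, and was 2.22-fold higher (log2 fold change 1.15 ± 0.22 SE, n = 4 per group, edgeR adjusted p = 0.00313). Gmnn stood at 8.60, 8.17, 21.7 and 9.67 CPM in VSG and at 5.86, 7.17, 4.74 and 3.55 CPM in Sham-WM. The groups did not overlap, and Gmnn was 2.24-fold higher in VSG (log2 fold change 1.16 ± 0.32 SE, edgeR adjusted p = 0.0184). Without 1F and 8F the log2 fold changes were 1.08 for Cdt1 and 1.502 for Gmnn, and both were still called (edgeR adjusted p = 0.0309 and 0.0168). Both calls were lost with RUVs factors (edgeR adjusted p = 0.068 and 0.113) and with the second label field (log2 fold change -0.011 and -0.15), and that of Gmnn also without 15F or 16F. The pair regulates licensing in opposite ways, and its members differed from Sham-WM in the same direction.

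The subunits of the helicase, Mcm2 to Mcm7, were not called by edgeR or by DESeq2 in any comparison, nor did they pass an unadjusted p under 0.05. With RUVs factors (estimates of unwanted variation from the replicates), Mcm3 and Mcm6 were called lower in VSG than in Sham-WM, Mcm6 with a log2 fold change of -1.15 (edgeR adjusted p = 0.0126). The same factors called both higher in Sham-WM than in Sham-Ad lib, and RUVr factors (estimates from the residuals) called Mcm6 for VSG against Sham-Ad lib. Without such factors, Mcm2 to Mcm7 had log2 fold changes between -0.087 and 0.43 for VSG against Sham-WM, with standard errors of 0.16 to 0.47. Mcm2 stood at 7.11, 7.45, 3.99 and 2.79 CPM in VSG, 5.71, 4.04, 2.86 and 3.43 CPM in Sham-WM and 2.68, 7.57, 2.98 and 4.204 CPM in Sham-Ad lib. Mcm6 stood at 11.7, 7.40, 4.07 and 4.38 CPM in VSG, 7.44, 6.40, 5.66 and 5.18 CPM in Sham-WM and 3.24, 10.4, 3.19 and 4.204 CPM in Sham-Ad lib. For both genes the high libraries were 1F and 8F in VSG and 4F in Sham-Ad lib, and all 3 groups overlapped. Pcna stayed within 27.8 to 40.0 CPM in VSG, 29.9 to 31.2 CPM in Sham-WM and 28.5 to 30.8 CPM in Sham-Ad lib, with a log2 fold change of 0.13 ± 0.11 SE for VSG against Sham-WM (edgeR adjusted p = 0.402). Cdc45, part of the active helicase, did not overlap between VSG and Sham-WM (1.13 to 1.43 against 0.714 to 0.870 CPM) but was not called (edgeR adjusted p = 0.0779).

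None of the 5 members that supply nucleotides or copy chromatin marks was called in any comparison, by edgeR or by DESeq2, and only Tyms passed an unadjusted p under 0.05, for VSG against Sham-Ad lib. RUVr factors called Tyms and Uhrf1 in both comparisons of VSG. Rrm2, the small subunit of ribonucleotide reductase, lay between 5.35 and 7.11 CPM in VSG, 4.05 and 9.02 CPM in Sham-WM and 4.13 and 7.47 CPM in Sham-Ad lib, with a log2 fold change of 0.094 ± 0.26 SE for VSG against Sham-WM (edgeR adjusted p = 0.811). Tk1 (thymidine kinase) and Tyms (thymidylate synthase) had their highest values in VSG library 11F, 53.7 and 27.9 CPM. Uhrf1, which carries DNA methylation through replication, had 3.17 and 2.60 CPM in 1F and 8F and 0.8286 and 0.341 CPM in 11F and 18F, a pattern like that of the mitotic members.

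Of the 9 members that control G2 and mitotic entry, 4 were tested and 2, Cdk1 and Ccnb2, were called between VSG and Sham-WM, both higher in VSG. These are 50% of the few that were tested, beside 15.0% of all genes tested that were called higher. Ccnb2 passed the filter on low counts largely through VSG libraries. Without that filter 4 of the 9 were called, beside 14.3% of all genes. Cdk1, the kinase that drives mitosis, stood at 4.78, 2.14, 2.49 and 0.967 CPM in VSG, 1.12, 0.614, 0.561 and 0.675 CPM in Sham-WM and 0.391, 1.502, 0.757 and 1.13 CPM in Sham-Ad lib. Libraries 1F, 8F and 11F were above all 8 sham libraries, and 18F was within their range. Cdk1 was 3.46-fold higher in VSG than in Sham-WM (log2 fold change 1.79 ± 0.48 SE, n = 4 per group, edgeR adjusted p = 0.0171). The call was lost without 1F and 8F (log2 fold change 1.14, edgeR adjusted p = 0.153) and with RUVs factors, where the log2 fold change was -0.15. Its partner Ccnb2 (cyclin B2) was 3.88-fold higher (log2 fold change 1.96 ± 0.62 SE, edgeR adjusted p = 0.0336), with 2.63, 1.48, 0.301 and 1.08 CPM in VSG against 0.102 to 0.765 CPM in Sham-WM. Aurka, the centrosome kinase, gave values of 1.76 to 4.48 CPM in VSG and 1.13 to 3.93 CPM in Sham-WM (edgeR adjusted p = 0.655). Ccna2 (cyclin A2) had an edgeR adjusted p of 0.0755.

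Of the 10 members of chromosomes, kinetochores and the spindle checkpoint, 8 were tested and 6 were called higher in VSG than in Sham-WM: Mki67, Top2a, Cenpf, Aurkb, Birc5 and Ube2c. These are 75% of those tested, beside 15.0% of all genes tested that were called higher. Aurkb passed the filter on low counts largely through VSG libraries, and without that filter 7 of the 10 were called, beside 14.3% of all genes. Mki67 (ENSMUSG00000031004, chr7:135689784-135716361 on mm10, minus strand), which encodes the Ki-67 coat protein of mitotic chromosomes, stood at 14.7, 14.4, 2.26 and 2.16 CPM in VSG. It stood at 1.43, 1.43, 2.96 and 2.48 CPM in Sham-WM and at 0.837, 4.61, 0.920 and 2.13 CPM in Sham-Ad lib. Libraries 1F and 8F were thus far above the other 10, and 11F and 18F were inside the range of the shams. The fitted difference was 4.06-fold (log2 fold change 2.02 ± 0.67 SE, n = 4 per group, edgeR adjusted p = 0.0409), and without 1F and 8F it was 0.059 on the log2 scale (edgeR adjusted p = 0.957). It was -0.24 with RUVs factors and -0.17 with the second label field.

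Top2a (topoisomerase II alpha, which untangles sister chromatids) followed the same libraries. It stood at 11.7, 9.65, 1.43 and 2.16 CPM in VSG and at 1.22, 0.717, 0.969 and 1.63 CPM in Sham-WM, and was 5.51-fold higher in VSG (log2 fold change 2.46 ± 0.64 SE, n = 4 per group, edgeR adjusted p = 0.0148). Aurkb, the kinase of the chromosomal passenger complex, stood at 2.21, 1.89, 0.678 and 0.171 CPM in VSG and at 0.102 to 0.394 CPM in Sham-WM (log2 fold change 2.62 ± 0.84 SE, edgeR adjusted p = 0.0357). Birc5 (survivin), of the same complex, was more even. It stood at 3.23, 1.43, 1.51 and 1.48 CPM in VSG, above all 8 sham libraries (0.563 to 1.23 CPM), and was 2.36-fold higher than in Sham-WM (log2 fold change 1.24 ± 0.35 SE, edgeR adjusted p = 0.0212). Ube2c, the ubiquitin-conjugating enzyme of the anaphase-promoting complex, stood at 2.57, 2.25, 1.96 and 0.569 CPM in VSG, above the 4 Sham-WM libraries (0.154 to 0.459 CPM), with a log2 fold change of 2.36 ± 0.57 SE (edgeR adjusted p = 0.0105). Cenpf had a log2 fold change of 1.58 ± 0.55 SE (edgeR adjusted p = 0.0485).

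Of the 10 members of the spindle and of cytokinesis, 9 were tested and 3 were called, a share of 33.3% beside 26.9% of all genes tested. Racgap1 passed the filter on low counts largely through VSG libraries. Without that filter 4 of the 10 were called, beside 14.3% of all genes. Stmn1 (stathmin, which destabilises microtubules) stood at 15.9, 11.6, 10.8 and 6.94 CPM in VSG, above all 8 sham libraries (4.13 to 6.22 CPM). It was 2.33-fold higher than in Sham-WM (log2 fold change 1.22 ± 0.23 SE, n = 4 per group, edgeR adjusted p = 0.00309) and 2.02-fold higher than in Sham-Ad lib, where it missed the threshold (log2 fold change 1.02 ± 0.23 SE, edgeR adjusted p = 0.0521). Racgap1, a component of centralspindlin, stood at 2.75, 3.78, 0.8286 and 0.171 CPM in VSG and at 0.225 to 0.459 CPM in Sham-WM (log2 fold change 2.52 ± 0.81 SE, edgeR adjusted p = 0.0349). Its log2 fold change was 0.50 without 1F and 8F (edgeR adjusted p = 0.722), -0.64 with RUVs factors and -0.69 with the second label field. Ect2, the exchange factor that centralspindlin recruits to start furrowing, went the other way. It stood at 1.43, 1.33, 0.904 and 0.967 CPM in VSG, below all 4 Sham-Ad lib libraries (1.57 to 1.90 CPM), and at 1.22, 3.74, 2.14 and 1.74 CPM in Sham-WM. Ect2 fell 1.90-fold against Sham-WM (log2 fold change -0.92 ± 0.32 SE, edgeR adjusted p = 0.0495) and was called in only 1 of the 12 fits that left out 1 library, that without 2F. Without 9F, its highest library, the log2 fold change was -0.55. The kinesins Kif11, Kif20a and Kif23 were not called (edgeR adjusted p = 0.18, 0.402 and 0.0517).

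**Figure D4:**
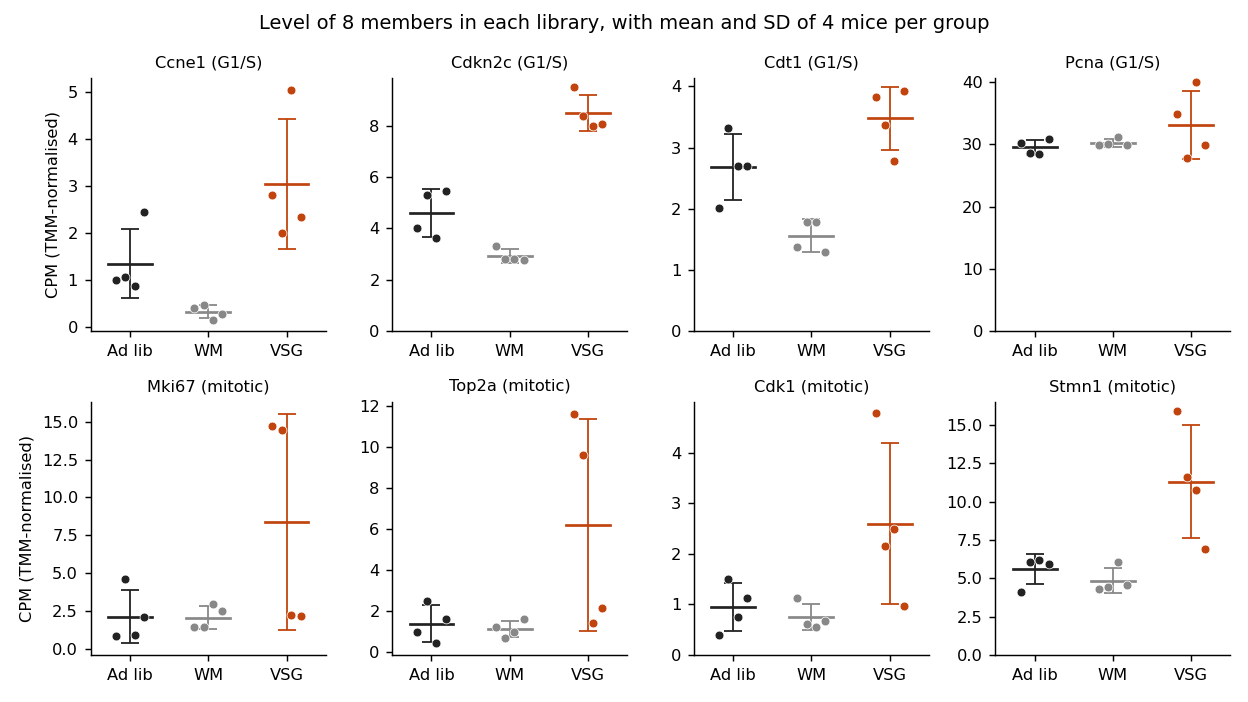
TMM-normalised CPM of 4 G1/S members (top) and 4 mitotic members (bottom) in each library (points), with the mean (line) and SD (bars) of 4 mice per group. Cdkn2c separates the 3 groups, Pcna does not, and the VSG values of Mki67 split into 14.4 and 14.7 CPM for 2 libraries and 2.16 and 2.26 CPM for the other 2.

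The split among the VSG libraries was shared by the mitotic members and much weaker in the G1/S members. Libraries 1F and 8F were the 2 highest of the 12 libraries for 24 of 29 mitotic members and for 3 of 22 G1/S members, and both were above all 8 sham libraries for 26 mitotic and 5 G1/S members. The median mitotic member was 6.04 times the sham mean in 1F, 4.27 times in 8F, 1.38 times in 11F and 1.03 times in 18F. For the median G1/S member these ratios were 1.54, 1.23, 0.972 and 0.928. Among the Sham-Ad lib libraries, 4F was the highest for 22 of 29 mitotic members. Summed over the 29 genes, the mitotic members reached 107.6 and 83.6 CPM in 1F and 8F, 35.7 and 25.8 CPM in 11F and 18F, 38.2 CPM in 4F and 16.1 to 29.5 CPM in the other 7 sham libraries. These counts describe the libraries, and the libraries were not grouped for a test.

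Leaving out 1F and 8F was an alternative chosen after the data were seen, and since they had the highest mitotic levels, a lower mitotic difference follows from the choice. Of the 15 members called between VSG and Sham-WM, 5 were still called: Ccne1, Cdkn2c, Cdt1, Gmnn and Stmn1. They were 4 of the 4 called G1/S members and 1 of the 11 called mitotic members, beside 13.1% of all 13382 genes then tested. Of the 10 mitotic calls lost, with only 2 VSG libraries left, Ect2 had a log2 fold change of -1.27, Ube2c of 1.75, Cdk1 of 1.14, Ccnb2 of 0.98, Aurkb of 0.97 and Birc5 of 0.85, whereas Top2a had 0.64, Racgap1 0.50, Cenpf 0.38 and Mki67 0.059. Leaving out 1F alone gave 7 members and 8F alone 9, while 20 were called without 11F and 21 without 18F. The count also moved with the Sham-WM libraries: leaving out 2F gave 10, 9F gave 9, 15F gave 8 and 16F gave 7. It lay between 14 and 16 without any 1 Sham-Ad lib library. Ccne1, Cdkn2c, Cdt1, Stmn1, Top2a and Ube2c were called in all 12 of these fits, Cdk1, Birc5 and Gmnn in 10, Ccnb2 in 7, Aurkb and Racgap1 in 6, Mki67 in 5, Cenpf in 3 and Ect2 in 1.

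Summed markers of granulocyte precursors, neutrophils, Kupffer cells, monocytes, B and plasma cells and T and NK cells were also highest in 1F and 8F. In 1F and 8F the monocyte markers summed to 47.6 and 42.4 CPM and the B and plasma cell markers to 22.6 and 19.1 CPM. The T and NK cell markers summed to 6.63 and 7.40 CPM there. Markers of some other cells were spread otherwise. The part of any of these cells in the mitotic levels was not tested. The 4 granulocyte precursor markers (Mpo, Elane, Prtn3 and Ctsg) summed to 9.56 to 215 CPM in VSG, 0.255 to 0.815 CPM in Sham-WM and 0.27 to 18.1 CPM in Sham-Ad lib. Mpo (myeloperoxidase) stood at 73.7, 44.2, 6.55 and 2.62 CPM in VSG and at 2.36 CPM in 4F, and it had 0 counts in 3F, 6F, 9F, 15F and 16F, where a count of 0 allows up to 3 counts. All 3 tested markers of this list and all 5 tested of the 6 neutrophil markers were called higher in VSG than in Sham-WM. The neutrophil markers summed to 22.01 to 627 CPM in VSG, 2.66 to 3.72 CPM in Sham-WM and 1.30 to 15.7 CPM in Sham-Ad lib, and the untested one, Ly6g, had 0 counts in all 8 sham libraries. All 6 Kupffer cell markers, which included Clec4f and Timd4, were called as well. They summed to 1118, 581, 549 and 389 CPM in VSG libraries 1F, 8F, 11F and 18F, all above the shams. The sums were 104.2 to 183 CPM in Sham-WM and 113.5 to 376 CPM in Sham-Ad lib. Library 4F had the highest summed level of the Sham-Ad lib group for the granulocyte precursor, neutrophil and Kupffer cell lists, as it had for the mitotic members. In Sham-WM the mitotic and Kupffer cell sums did not move together. The mitotic sums were highest in 15F and 16F (29.4 and 29.5 CPM). The granulocyte precursor sums there were 0.255 and 0.45 CPM, from 5 and 8 counts, and those of 2F and 9F came from 16 and 10 counts. Counts this low cannot order these libraries. Within Sham-WM, 15F had the highest neutrophil and Kupffer sums (3.72 and 183 CPM) and 16F the lowest Kupffer sum (104.2 CPM). Of the other lists, VSG against Sham-WM called 2 of 6 monocyte, 3 of 5 B and plasma cell and 2 of 3 T and NK cell markers and 1 of 5 erythroid markers higher, and 2 of 6 hepatocyte, 1 of 5 endothelial and 2 of 5 stellate cell markers lower. Of all genes tested, 15.0% were called higher and 11.9% lower in this comparison. Erythroid markers summed to 133 CPM in 8F, the lowest of the 12 libraries, and to 629 CPM in 11F, the highest. No cholangiocyte marker of 5 was called by edgeR, while 2 passed an unadjusted p under 0.05 and DESeq2 called 1.

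**Figure D5:**
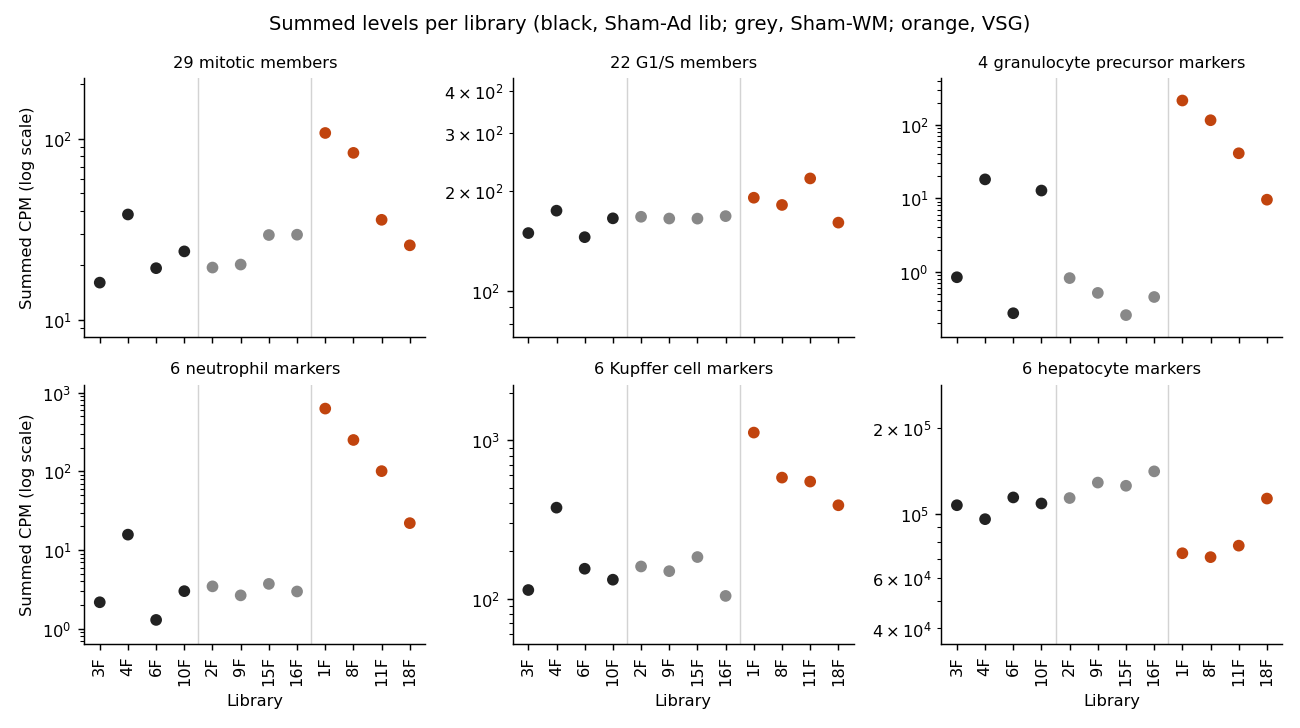
Summed CPM (log scale) of the mitotic members, the G1/S members and 4 marker lists in each of the 12 libraries, coloured by group. Libraries 1F and 8F have the highest sums of the mitotic members (107.6 and 83.6 CPM) and of the granulocyte precursor markers (215 and 116 CPM), while the G1/S members span only 146 to 219 CPM.

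The 8 members that did not pass the filter had few reads, with the highest value in 1F or 8F for each. Ccnb1 (cyclin B1), the main partner of Cdk1, stood at 2.15 and 1.89 CPM in 1F and 8F, 36 and 37 counts, and at 0.301 and 0.228 CPM in 11F and 18F. It did not exceed 0.45 CPM in any sham library. Foxm1, the transcription factor of the mitotic programme, stood at 1.67 and 1.38 CPM in 1F and 8F, 0.452 and 0.114 CPM in 11F and 18F, and 0.154 to 0.859 CPM in the shams. Over the 12 libraries the total counts were 117 for Foxm1, 103 for Plk1, 53 for Melk, 38 for Cdkn3, 84 for Bub1, 138 for Cdc20 and 85 for Hmmr. Without the filter, edgeR called Ccnb1, Melk, Cdc20 and Hmmr among 19 members for VSG against Sham-WM, beside 14.3% of all genes in that fit. Foxm1, Plk1, Cdkn3 and Bub1 were not called in that fit, and Foxm1 was called when 18F was left out.

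Of 28 other S-phase genes, 22 were tested. For VSG against Sham-Ad lib, edgeR and DESeq2 called none and 5 passed an unadjusted p under 0.05. The shares over all genes were 0.751%, 9.01% and 24.1%. Of the same genes, 3 were called lower in Sham-WM than in Sham-Ad lib, and 5 were called higher and 3 lower in VSG than in Sham-WM. These are 13.6% and 36.4% of those tested, beside 6.99% and 26.9% of all genes tested. The Blm helicase, which resolves recombination intermediates, had the largest fold change among the called genes of this list. It stood at 1.68, 1.74, 1.22 and 1.18 CPM in Sham-WM, below all other libraries, and fell 2.498-fold against Sham-Ad lib (log2 fold change -1.32 ± 0.26 SE, edgeR adjusted p = 0.00972). Brip1, a helicase of the same repair pathway, fell by 0.83 on the log2 scale (edgeR adjusted p = 0.0168), and both were higher in VSG than in Sham-WM (log2 fold change 1.42 and 0.84).

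Of 36 other G2/M genes, 25 were tested. For VSG against Sham-Ad lib, edgeR called none, DESeq2 called 5 and 9 passed an unadjusted p under 0.05. The shares over all genes were 0.751%, 9.01% and 24.1%. For the other comparisons, 2 were called higher and 1 lower in Sham-WM than in Sham-Ad lib, and 6 were called higher and 5 lower in VSG than in Sham-WM. These are 12% and 44% of those tested, beside 6.99% and 26.9% of all genes tested. The chromatin protein Hmgb2 was called higher in VSG (40.5, 23.9, 13.3 and 6.09 CPM, against 3.15 to 6.14 CPM in Sham-WM, edgeR adjusted p = 0.00765), again with 1F and 8F highest. Nek2, a centrosome kinase, fell 2.94-fold in Sham-WM against Sham-Ad lib (log2 fold change -1.55 ± 0.37 SE, edgeR adjusted p = 0.0222) and was called higher in VSG than in Sham-WM (log2 fold change 1.48, edgeR adjusted p = 0.0119). Tubb4b and Anp32e were called higher in Sham-WM than in Sham-Ad lib and lower in VSG than in Sham-WM.

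Among 20 G1 cyclins, kinases and pocket proteins, 18 were tested. For VSG against Sham-Ad lib, edgeR called none, DESeq2 called 2 and 5 passed an unadjusted p under 0.05. The shares over all genes were 0.751%, 9.01% and 24.1%. E2f2 was called higher in Sham-WM than in Sham-Ad lib, and 4 were called for VSG against Sham-WM. These are 5.56% and 22.2% of those tested, beside 6.99% and 26.9% of all genes tested. E2f2, an activating E2F, stood at 2.90, 1.48, 1.99 and 3.32 CPM in Sham-WM, above all Sham-Ad lib libraries (0.502 to 1.23 CPM), and rose 3.30-fold (edgeR adjusted p = 0.0318). For VSG against Sham-WM, Myc (log2 fold change 1.498), Cdk4 (0.38) and Ccnd3 (0.29) were called higher and Ccnd2 (-0.63) lower. Of 17 inhibitors of the cycle, 14 were tested. For VSG against Sham-Ad lib edgeR called none, DESeq2 2, and 3 passed an unadjusted p under 0.05, beside the same shares of all genes. Btg1 was called higher and Ccng1 lower in Sham-WM than in Sham-Ad lib, and Cdkn2d (p19INK4d, log2 fold change 1.18) and Ccng1 (0.62) were called higher and Tob1 (-0.88) and Btg1 (-0.55) lower in VSG than in Sham-WM. The called inhibitors were 14.3% and 28.6% of those tested, in that order, beside 6.99% and 26.9% of all genes tested. Cdkn2d and Cdkn2c are paralogs, whose products act on the same kinases.

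Reads of 11 members could be shared with a gene on the opposite strand that overlaps them: Ccnd1, Ccne2, E2f8, Mcm7, Cdc45, Tk1, Ccna2, Cdc20, Kif20a, Nusap1 and Prc1. The strand setting of the counting is not given in the sources used here, so their levels are less certain than those of the other 40. The members called by edgeR in the 3 comparisons were all among the 40.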

How the data were processed

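Liver RNA of 12 mice, 4 per group, was analysed. Per the methods, the authors selected poly(A) RNA, made directional libraries, sequenced paired reads of 100 bases, aligned them to mm10 with TopHat2 2.1.1 and counted reads on genes with featureCounts. The deposited values are raw counts per Ensembl gene, with 1 column per library; none of the columns was left out. Symbols and positions were taken from GENCODE M21, which held 45229 of the 46078 genes (all 51 members), and promoter sequences from RefSeq (GRCm38.p6).

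Libraries were grouped by the animal number shared by the library name and the title of the sample. Genes were filtered with filterByExpr (minimum count 10, minimum total 15) and fitted with the edgeR 4.0.16 quasi-likelihood test (R 4.3.3, limma 3.58.1) with TMM factors, all 12 libraries in 1 fit, with Benjamini-Hochberg adjustment over all 13054 genes and calls at 0.05. Each library came from a separate mouse, so p-values measure the spread between these mice. Totals of 15122520 to 19384076 counts leave a few counts per library for many mitotic members, reads carried no molecular identifiers, and count limits cover counting error only. CPM values are given as mean ± SD in figures. The authors, per the methods, used DESeq2 and corrected for batch with RUVSeq (k = 2), without naming the variant. The main fit here holds no such factors. The alternatives were DESeq2 1.42.0, RLE and upper quartile factors, other filters, fits of 2 groups, RUVs and RUVr factors (k = 2, written from their definitions), groups by the second label field, unadjusted p-values and leaving out each library.

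The members, the other gene lists and the cell markers were chosen with earlier results of these data known. Values are given for every called member, for 15 members named by the rule, for members below the filter, and for up to 3 called genes per direction of each other list. Promoters were to be shown for Ccnd1 too, which had no entry, and Mcm6 took its place.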

Additional observations from a re-analysis of the deposited data

Results flagged for a closer look

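Each value below belongs to 1 library that lay far from the other 3 of its group, by Dixon's test at the 95% level. Of 75 groups of 4 values, 8 met it, and chance alone gives about 1 in 20. Ccne1 was 2.45 CPM in Sham-Ad lib 10F, with the others at 0.866 to 1.07 CPM. Cdkn2c was 3.31 CPM in Sham-WM 2F (others 2.76 to 2.82 CPM), and Pcna was 31.2 CPM in Sham-WM 15F (others 29.9 to 30.1 CPM). Mcm6 was 10.4 CPM in Sham-Ad lib 4F (others 3.19 to 4.204 CPM). Birc5 was 3.23 CPM in VSG 1F (others 1.43 to 1.51 CPM). Gmnn was 21.7 CPM in VSG 11F (others 8.17 to 9.67 CPM). Stmn1 was 4.13 CPM in Sham-Ad lib 3F (others 5.90 to 6.22 CPM) and 6.07 CPM in Sham-WM 15F (others 4.28 to 4.56 CPM). The pairs that were high together in VSG, 1F and 8F, are not seen by a test of this kind.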

How the results depend on the processing

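The number of called members depended on the processing, and the causes were not tested. For VSG against Sham-Ad lib it was 1, and it became 7 with DESeq2, 3 without a filter on low counts, 18 with RUVr factors, 20 at an unadjusted p, and 0 with at least 10 counts in every library (a filter that removes low genes), with only the 2 groups compared, with RUVs factors, with the second label field and without 1F and 8F (chosen after the data were seen). For Sham-WM against Sham-Ad lib it was 2, and it became 1 without the filter, 5 with RUVs factors, 4 with RUVr factors, 5 at an unadjusted p and 0 with the second label field. For VSG against Sham-WM it was 15, and it became 7 with at least 10 counts in every library, 4 with RUVs factors (Ccne1, Cdkn2c, Mcm3 and Mcm6), 0 with the second label field and 5 without 1F and 8F. With 1 library left out it ranged from 0 to 9, from 0 to 3 and from 7 to 21. For this comparison RLE and upper quartile factors gave 14 each, only the 2 groups 12, and DESeq2, RUVr factors and an unadjusted p 22 each. In the comparison of VSG with Sham-WM the log2 fold change turned negative with RUVs factors for Cdk1 (-0.15), Mki67 (-0.24), Aurkb (-0.47) and Racgap1 (-0.64), and with the second label field for Mki67 (-0.17), Aurkb (-0.14), Racgap1 (-0.69), Ube2c (-0.23), Gmnn (-0.15) and Cdt1 (-0.011). For Sham-WM against Sham-Ad lib, that of Cdkn2c became 0.091 with the second label field. No paired analysis was possible because the groups share no animal number. Depth limits the mitotic members most: 8 of 29 were below the filter.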

Other observations

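Some members were high in 1 sham library each and were chosen here after their values were seen. Kif20a, a kinesin of cytokinesis, was 5.18 CPM in Sham-WM 16F against 0.459 to 1.07 CPM in the other 3 Sham-WM libraries. E2f8 was 13.6 CPM in Sham-Ad lib 3F and 16.0 CPM in Sham-WM 9F, and 3.70 to 8.11 CPM in the other 10 libraries. Ect2 was 3.74 CPM in 9F, the library in which E2f8 was also highest.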
